A study of Drosophila melanogaster with 12 samples.

Results

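The 10 genes described here are the ecdysone receptor and the early response genes of the ecdysone pathway in *Drosophila melanogaster*: *EcR*, *usp*, *Eip75B*, *Eip74EF*, *br*, *ftz-f1*, *Eip78C*, *Eip71CD*, *Hr3* and *Hr4*. They were taken by name, 10 of the 13968 protein-coding genes on the chromosome arms. *Eip71CD* was found under its current name in the annotation, *MsrA*. For each gene the percentage of the gene body, and of a window 500 bp either side of each transcription start site (TSS), that lay inside called regions was measured in each library. The regions came from ChIP-seq against RNA Polymerase II phosphorylated on serine 2 of its C-terminal domain (Pol II S2), in Kc167 cells, a female line of embryonic hemocyte origin. The groups were: cells transfected with siRNA against Argonaute2 (AGO2 KD), cells transfected with dsRNA against LaminB (LaminB KD), and cells that went through transfection without either RNA (mock). Cells were collected 3 days after transfection. Each group had 2 libraries, called AGO2 KD 1 and 2, LaminB KD 1 and 2, and mock 1 and 2. The labels name no ecdysone treatment of any group, and the type of interfering RNA differed between the knockdowns.

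Ecdysone is the steroid hormone that times molting and metamorphosis in insects. Its active form binds a heterodimer of the nuclear receptors EcR and Usp, which sits on target genes and switches between corepressors and coactivators. The receptor directly induces the early genes, most of which encode transcription factors that act on later genes and on each other. Several of them have alternative promoters that respond to the hormone at different concentrations and times. Kc cells are a classical model of this response in culture. Serine 2 phosphorylation marks Pol II that has left the promoter-proximal region, and it usually grows toward the end of a transcribed gene.

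The lists held 4122 and 6534 regions in AGO2 KD cells, 7309 and 7122 in LaminB KD cells, and 7795 and 7957 in mock. Without read counts in them, depth could not be assessed and no counting error can be attached to a value. Among regions with a fold enrichment of 3.0 to 3.5, the median −log10 p was 4.11 and 6.49 in AGO2 KD cells, 9.87 and 11.6 in LaminB KD cells, and 14.7 and 14.5 in mock. Regions of like fold were thus called with least significance in AGO2 KD 1. Coverage of many genes follows the same ordering of groups, and the part of call significance in it was not tested. With 2 libraries against 2, the smallest two-sided p of an exact permutation test is 0.333, so no single comparison could pass 0.05. A gene or promoter is called lower or higher only where both libraries of one group lay below or above both of the other. For counts under the main settings, the share of all genes or promoters that did the same is given beside them. It was not computed for counts under other settings, which are not read against a background. Nothing in the labels says whether replicates were separate cultures. Of all 13968 protein-coding genes, 7554 had a region in at least 1 AGO2 KD or mock list, and no share over all 6 lists was computed. Of 10 hemocyte markers, 8 had a region in at least 1 list, while *He* and *NimC1* had none. None of the 3 fat body markers and none of the 3 salivary gland markers had any. Of the neuron markers 2 of 4 had one, of the muscle markers 2 of 4 and of the germ line markers 1 of 2, with body coverage of up to 8.91% at *elav*, 3.78% at *Mef2* and 24.0% at *vas*. Coverage of the *AGO2* gene itself was 4.39% and 18.4% in AGO2 KD cells, 59.4% and 58.2% in LaminB KD cells, and 55.7% and 33.2% in mock. RNA interference acts on the mRNA, so these values do not measure the depletion.

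Pol II S2 regions on these genes were mostly short islands. The 10 genes were touched by 13 and 38 regions in AGO2 KD cells, 35 and 38 in LaminB KD cells, and 43 and 46 in mock. Their median width was 266 bp and 353 bp in AGO2 KD cells, 382 bp and 385.5 bp in LaminB KD cells, and 382 bp and 375.5 bp in mock. The whole lists had medians of 438.5 bp and 667 bp in AGO2 KD cells, 800 bp and 820 bp in LaminB KD cells, and 906 bp and 862 bp in mock, so regions on these genes were the narrower ones in every list. Of the 10 genes, 8 are longer than 30 kb, a length reached by 4.80% of protein-coding genes. Their bodies were covered by at most 9.03% in any library. Only the short genes *usp* and *Eip71CD* were covered over most of their length, in all lists but AGO2 KD 1. The last 500 bp of the gene held no region in any list for 9 of the 10 genes, the exception being *Eip71CD*.

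**Figure D1:**
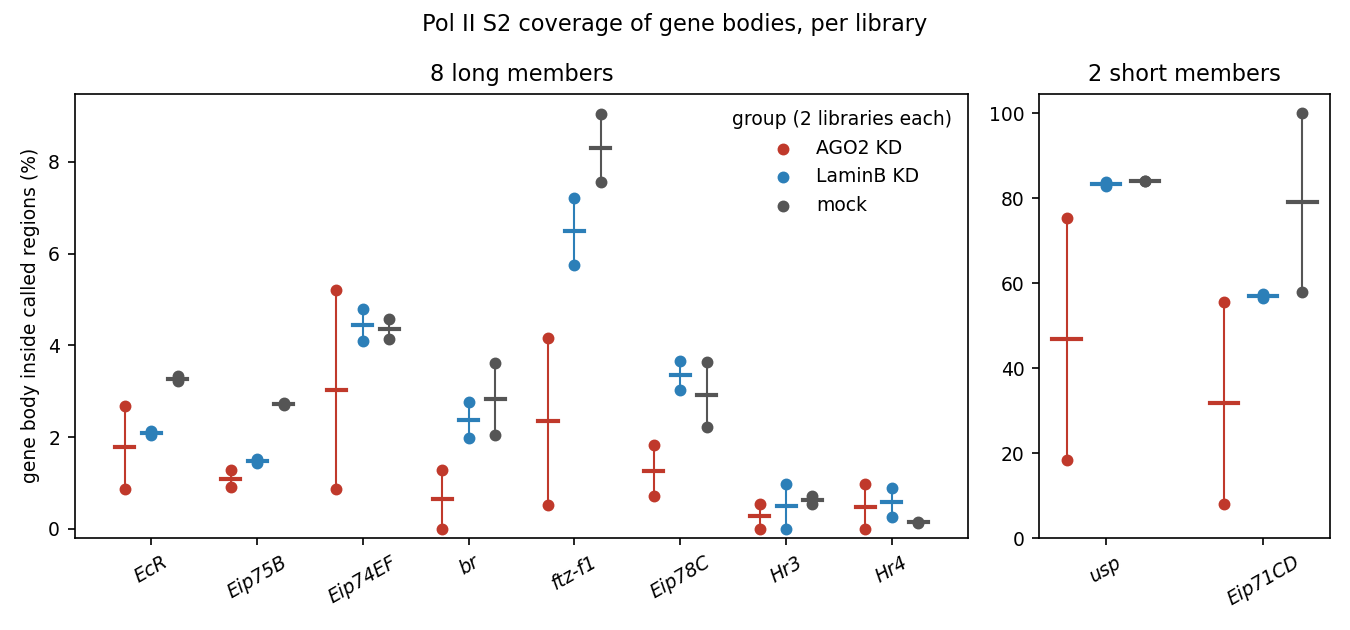
Percentage of each gene body inside called Pol II S2 regions, with 1 point per library, a line joining the 2 libraries of a group and a bar at their mean. The vertical axis of the 8 long genes on the left ends near 9%, and that of *usp* and *Eip71CD* on the right reaches 100%. AGO2 KD 1 is the lowest point or tied for it in all genes.

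Where several promoters serve 1 gene, Pol II S2 was found at some of them and not at others. Start sites within 500 bp of each other were joined into 1 promoter, which gave 32 promoters from 39 start sites and 65 transcripts. Of the 32 promoters, 11 had a region in all 6 lists and 12 in none. Of all 17170 promoters of protein-coding genes, 5094 had a region in all 6 lists and 8464 in none. By library, 11 and 15 of the 32 promoters held a region in AGO2 KD cells, 15 and 17 in LaminB KD cells, and 20 and 19 in mock. Each of the 10 genes had more than 1 promoter. The most upstream promoter had a region in every list in 3 genes and in no list in 4. No share over all promoters was computed for the counts by library or for the most upstream promoters.

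**Figure D2:**
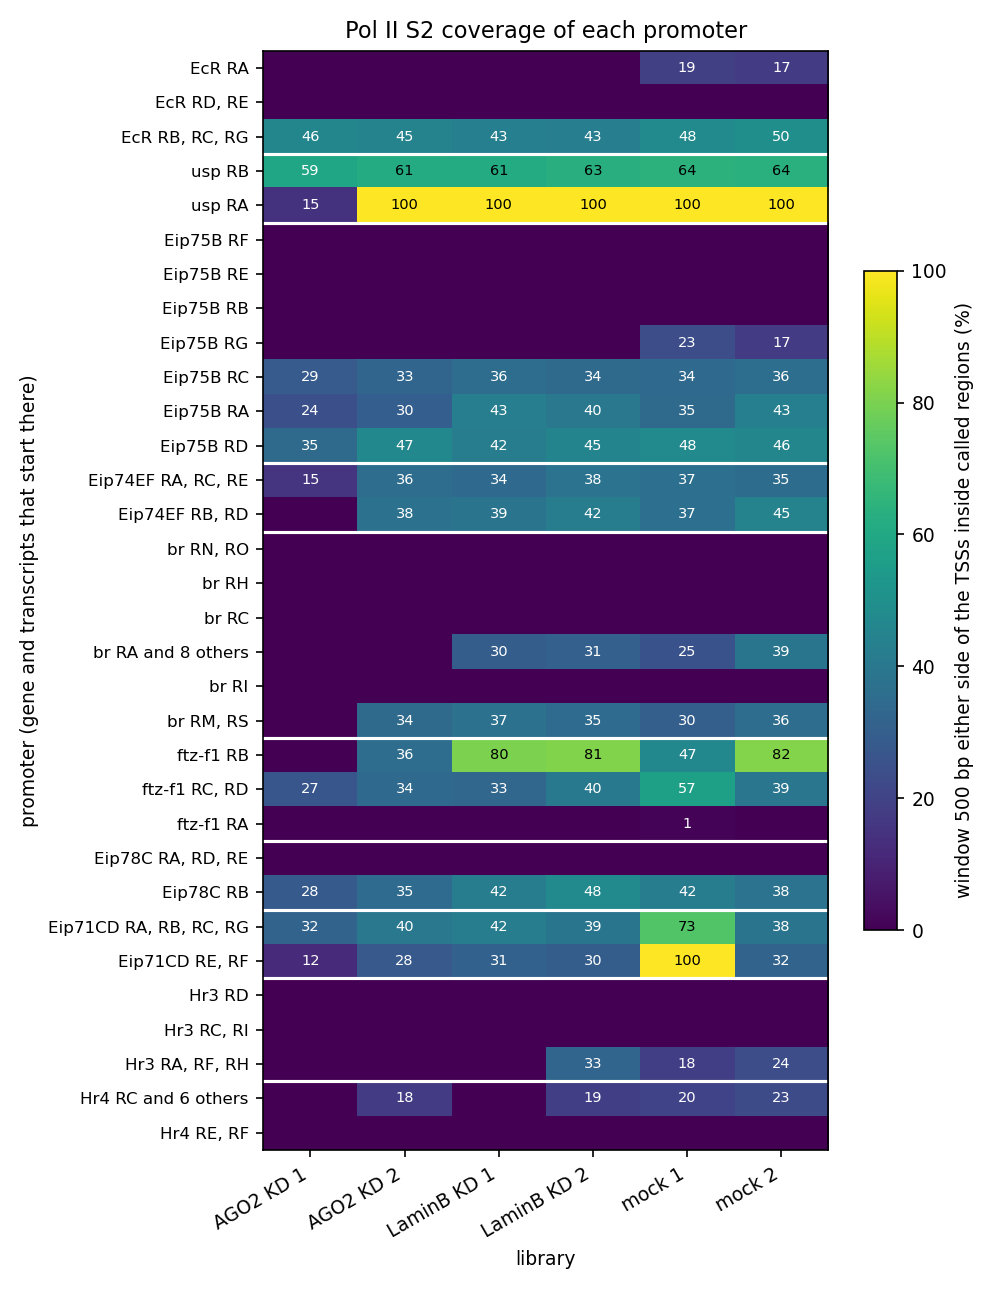
Percentage of each promoter window inside called regions, with 1 row per promoter in order along each gene, 1 column per library and the percentage as color and number. Dark cells without a number hold no region. *Eip75B* has regions at its RC, RA and RD starts in every list and none at RF, RE and RB, and the *EcR* RB, RC, RG promoter is covered by 42.7% to 49.6% in all libraries.

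*Eip75B* (chr3L:17950953-18064696, minus strand, build dm6) encodes nuclear receptor isoforms that bind heme and counteract Hr3. It had the clearest split between promoters. The RF, RE and RB starts, within the first 5.10 kb of the gene, had no region in any list. The RG start, 38.7 kb into the gene, had none in AGO2 KD and none in LaminB KD, against 23.5% and 17.5% of its window in mock. The RC, RA and RD starts, 64.9 kb, 93.3 kb and 102.9 kb into the gene, held a region in all 6 lists. The RC window was covered by 28.8% and 32.6% in AGO2 KD cells, 35.6% and 34.5% in LaminB KD cells, and 34.1% and 36.1% in mock. The RA window was covered by 24.3% and 29.9% in AGO2 KD cells, 42.7% and 40.2% in LaminB KD cells, and 34.7% and 43.2% in mock. The RD window was covered by 34.7% and 46.6% in AGO2 KD cells, 42.3% and 45.0% in LaminB KD cells, and 47.9% and 45.8% in mock. At RC and RA the values of AGO2 KD were under those of mock without overlap, whereas at RD these groups overlapped.

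The 100 bases upstream of some of these starts are printed to show promoters with a region in their window of 500 bp either side beside ones of the same gene without. They were read from the RefSeq genome sequence of the dm6 assembly, run 5′ to 3′ toward the start site on the strand of the gene and end at the base before it. Capitals mark GAGAG or its reverse complement CTCTC, the core of the element bound by GAGA factor, and TATAAA, the TATA box, which was searched on the strand of the gene only. From *Eip75B* come RD (chr3L:17961815-17961914), RA (chr3L:17971440-17971539) and RC (chr3L:17999822-17999921), whose windows held a region in every list, and RB (chr3L:18059599-18059698), whose window held none. At RD the regions reached into the printed bases in all 6 lists, whereas at RA and RC they covered no printed base in any list. From *Eip78C* (plus strand) come RB (chr3L:21240247-21240346), where printed bases were inside regions in every list, and the first start of RA, RD and RE (chr3L:21226509-21226608), whose window held no region. The starts of *ftz-f1* RC and RD (minus strand, chr3L:18765745-18765844) and of *Eip71CD* (plus strand, chr3L:15510952-15511051) also had printed bases inside regions in every list.
Eip75B RD: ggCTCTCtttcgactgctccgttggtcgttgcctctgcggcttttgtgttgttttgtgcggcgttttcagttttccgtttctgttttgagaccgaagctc
Eip75B RA: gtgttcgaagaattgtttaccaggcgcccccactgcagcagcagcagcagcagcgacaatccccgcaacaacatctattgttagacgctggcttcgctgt
Eip75B RC: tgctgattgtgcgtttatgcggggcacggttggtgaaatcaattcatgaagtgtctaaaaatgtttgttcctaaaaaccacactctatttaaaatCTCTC
Eip75B RB: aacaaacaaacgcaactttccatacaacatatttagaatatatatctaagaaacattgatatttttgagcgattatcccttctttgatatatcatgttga
Eip78C RB: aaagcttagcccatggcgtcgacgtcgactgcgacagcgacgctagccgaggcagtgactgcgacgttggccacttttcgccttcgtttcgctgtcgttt
Eip78C RA, RD, RE: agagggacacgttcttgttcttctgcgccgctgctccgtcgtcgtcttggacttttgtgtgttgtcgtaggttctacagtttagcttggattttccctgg
ftz-f1 RC, RD: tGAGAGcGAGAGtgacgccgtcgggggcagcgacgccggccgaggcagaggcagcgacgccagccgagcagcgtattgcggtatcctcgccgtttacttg
Eip71CD RA, RB, RC, RG: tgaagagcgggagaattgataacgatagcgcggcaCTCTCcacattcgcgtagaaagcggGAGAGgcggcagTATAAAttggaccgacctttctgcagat

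GAGAG or CTCTC occurred in the upstream 100 bases of 4 of the 11 promoters of these genes with a region in every list, in 4 of the 9 with a region in 1 to 5 lists and in 0 of the 12 with none. Over all 17170 promoters of protein-coding genes it occurred in 15.1%, in 15.8% of those with a region in every list and in 15.4% of those with none, so the split among the 32 promoters has no counterpart in the whole set. TATAAA occurred in 1 of the 32, that of *Eip71CD*, and in 13.8% of all promoters. The receptor half-site AGGTCA, searched on both strands with its reverse complement TGACCT, occurred in none of the 32 and in 1.65% of all promoters. Of the *Eip75B* promoters with a region in every list, RD, RA and RC held 51.0%, 55.0% and 38.0% G or C in the upstream sequence. Of those with a region in none, RB, RF and RE held 27.0%, 39.0% and 59.0%, so the ranges overlapped. Over the groups of promoters with a region in every list and in none, the median was 51.0% and 52.0%, against 42.0% over all promoters. The 5-base core of the inverted repeat bound by the receptor, GGTCA and TGACC with 1 base between them, occurred 72 times on the chromosome arms and 11 times inside a mock region. Among the 10 genes with 5 kb on either side it occurred once, 2550 bp into *Hr4*, where no list had a region. These matches are letters in a window and say nothing about what is bound there.

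The receptor genes differed in how much of them was covered. *EcR* (chr2R:6087873-6169087, minus strand), which encodes the hormone-binding subunit, had 0.876% and 2.67% of its body inside regions in AGO2 KD cells, 2.12% and 2.05% in LaminB KD cells, and 3.23% and 3.32% in mock. Both knockdown groups lay below mock without overlap. The promoter shared by RB, RC and RG, 37.2 kb into the gene, was covered in every list, by 45.7% and 44.8% in AGO2 KD cells, 43.1% and 42.7% in LaminB KD cells, and 47.9% and 49.6% in mock. It was the 1 promoter of the 32 where both AGO2 KD libraries lay above both LaminB KD libraries. The most upstream start, of RA, had no region in either knockdown, against 18.9% and 17.3% in mock. The mock region was weak, with fold 1.99 in both lists, and lay 80.9% and 82.9% of the way down them by fold. A tRNA gene starts within 500 bp of that region. The RD and RE start had no region in any list. Of the 10 places in *EcR* where at least 1 list had a region, 7 were introns. The intronic place 27.3 kb to 27.8 kb from the gene start, found in 5 lists, also lies within 500 bp of the start of a tRNA gene.

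*usp* (chrX:2038798-2042311, minus strand) encodes the partner of EcR and the fly ortholog of the vertebrate RXR. Its body was covered by 18.4% and 75.4% in AGO2 KD cells, 83.9% and 82.8% in LaminB KD cells, and 84.1% and 84.1% in mock. Both AGO2 KD libraries were below mock, but the difference from the mock mean was −65.7 percentage points in AGO2 KD 1 and −8.71 in AGO2 KD 2. LaminB KD minus mock was −0.768 points. The window around the RB start held a region in every list, 58.7% and 61.3% in AGO2 KD cells, 61.4% and 62.6% in LaminB KD cells, and 64.4% and 63.6% in mock. All of *usp* lies within other annotated genes. The coding genes that overlap it are *Actn* and *CG4313*, which also start within the RB window. The regions do not record strand, so which gene the Pol II belonged to cannot be told apart.

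The early genes with transcription factor products were covered thinly. The *Eip75B* body was inside regions by 0.921% and 1.27% in AGO2 KD cells, 1.53% and 1.44% in LaminB KD cells, and 2.71% and 2.74% in mock, with both knockdowns below mock. In covered bases the differences from mock were −1851 in AGO2 KD and −1411 in LaminB KD. Much of both lay in an exon region near the end of the gene, 109.8 kb to 111.1 kb from its start. That region covered 1059 bp and 1278 bp in mock and was in no knockdown list. It was a weak call, with fold 1.93 and 1.86 and −log10 q 2.03 and 1.62. With −log10 q of at least 2 the differences in body coverage were −1.03 and −0.564 points, against −1.63 and −1.24. *Eip74EF* (chr3L:17558672-17619325, minus strand), an ETS-domain factor, was covered by 0.861% and 5.21% in AGO2 KD cells, 4.08% and 4.78% in LaminB KD cells, and 4.57% and 4.15% in mock. Here AGO2 KD 2 was the highest library of the 6 and AGO2 KD 1 the lowest, so the groups overlapped. Its upstream promoter, of RA, RC and RE, had a region in every list, 15.3% and 35.8% in AGO2 KD cells, 34.4% and 38.0% in LaminB KD cells, and 36.7% and 35.3% in mock. The promoter of RB and RD, 42.7 kb into the gene, had none in AGO2 KD 1 and 37.7% in AGO2 KD 2, with 38.6% and 41.9% in LaminB KD, and 36.6% and 44.6% in mock. *Eip74EF* was the 1 gene of the 10 with intronic places found in all 6 lists, of which there were 2, at 48.8 kb and 55.2 kb from its start.

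*br* (chrX:1575132-1664869, plus strand), a BTB zinc finger factor needed for the onset of metamorphosis, had no region in AGO2 KD 1 and 1.28% of its body covered in AGO2 KD 2. It had 2.77% and 1.99% covered in LaminB KD, and 2.05% and 3.62% in mock. The promoter of RA and 8 other transcripts, 37.2 kb into the gene, had none in either AGO2 KD library, 29.6% and 30.9% in LaminB KD, and 25.0% and 38.8% in mock. Of its 6 promoters, 4 had no region in any list, among them the most upstream start. All of *br* lies within other annotated genes, and *Mur2B* is the coding gene that overlaps it. A region 43.0 kb to 44.3 kb from the *br* start lies within 500 bp of a start of *Mur2B*.

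**Figure D3:**
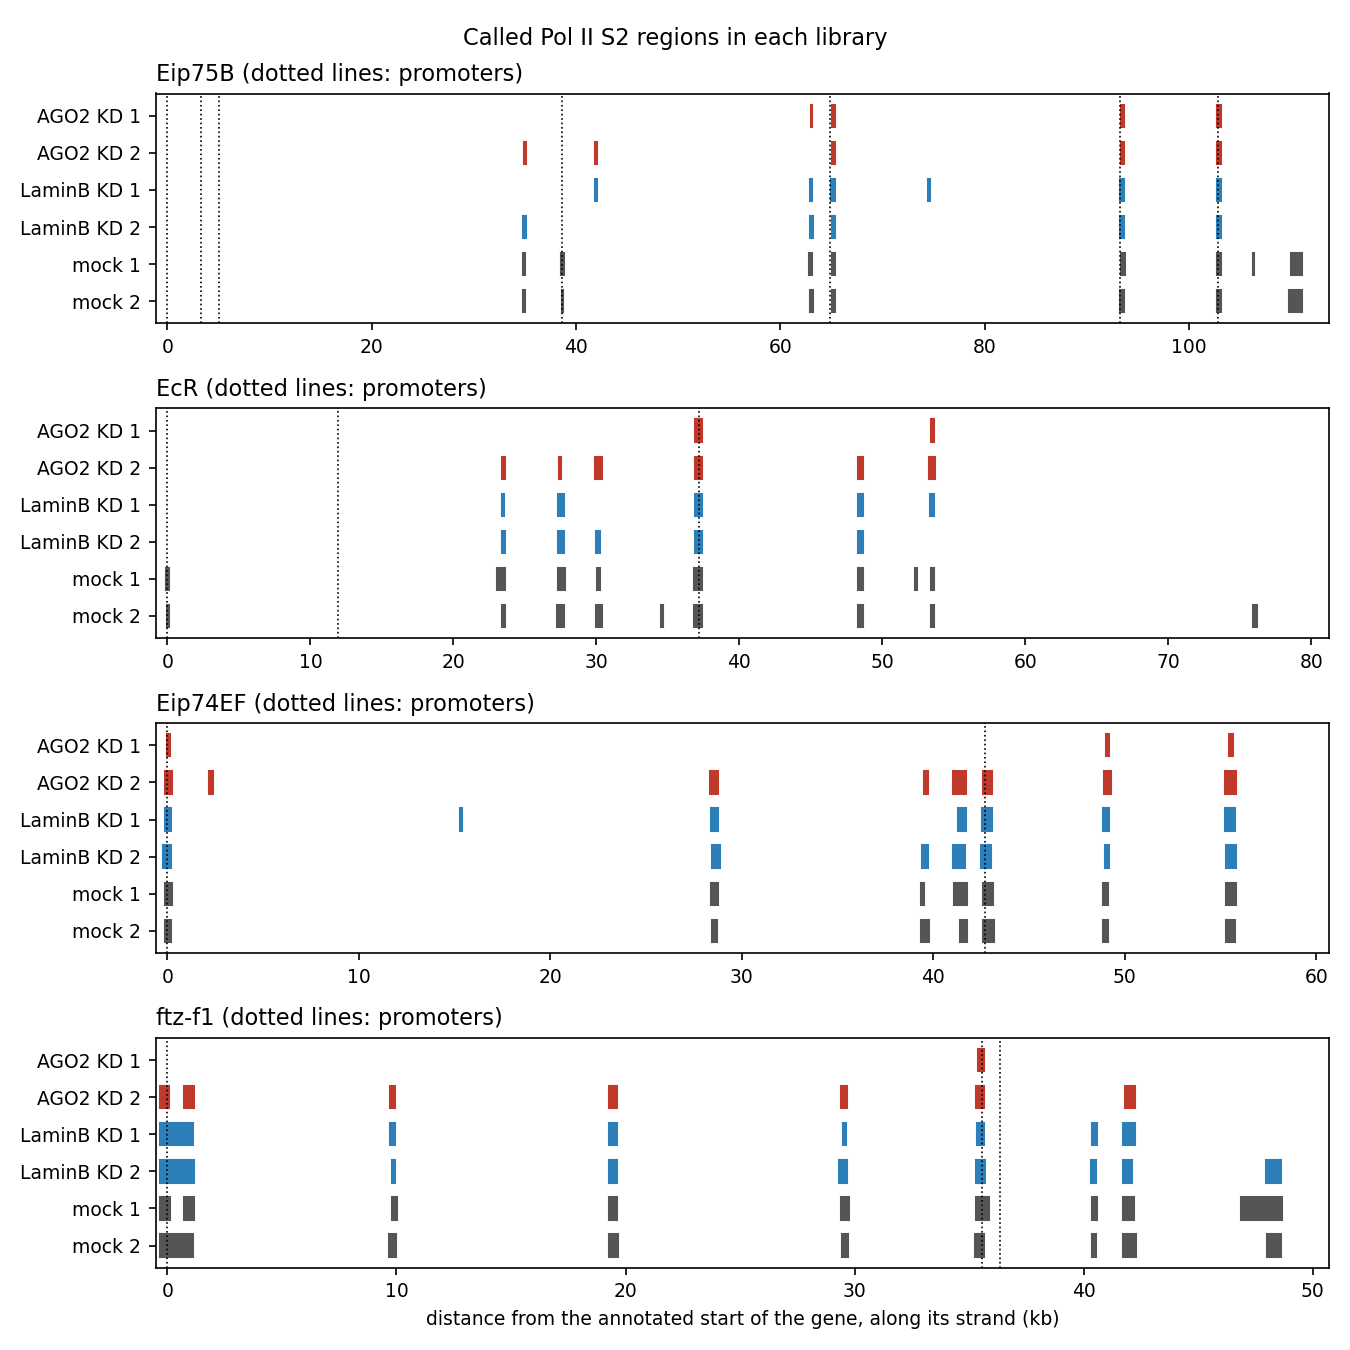
Called Pol II S2 regions along *Eip75B*, *EcR*, *Eip74EF* and *ftz-f1* in each library, with distance from the annotated start of the gene in kb on the horizontal axis, 1 row per library and dotted lines at promoters. Regions recur at the same places in several lists, and AGO2 KD 1 has 4, 2, 3 and 1 of them in these genes in that order.

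*ftz-f1* (chr3L:18750607-18801309, minus strand) encodes the competence factor for the prepupal response and was the most covered of the long genes in both mock lists. Its body was covered by 0.525% and 4.16% in AGO2 KD cells, 5.76% and 7.21% in LaminB KD cells, and 9.03% and 7.55% in mock. Neither knockdown overlapped mock. The exon region 46.8 kb to 48.6 kb from the gene start lies within 500 bp of a start of *lncRNA:CR45938*. Only 41.8% of the *ftz-f1* span lies outside other annotated genes. Over those bases AGO2 KD had 1.255% and 4.94%, LaminB KD 5.75% and 9.55%, and mock 14.8% and 9.44%. There LaminB KD overlapped mock and AGO2 KD did not. The RB promoter at the gene start had no region in AGO2 KD 1 and 35.6% in AGO2 KD 2, with 80.2% and 81.2% in LaminB KD, and 46.9% and 81.6% in mock. A noncoding gene, *lncRNA:CR45939*, starts in the same window. The RC and RD start had a region in every list, 26.6% and 34.4% in AGO2 KD cells, 32.9% and 40.5% in LaminB KD cells, and 56.8% and 39.2% in mock. *Eip78C* (chr3L:21226609-21266503, plus strand), a nuclear receptor related to Eip75B, was covered by 0.712% and 1.82% in AGO2 KD cells, 3.03% and 3.66% in LaminB KD cells, and 2.21% and 3.63% in mock. Both AGO2 KD libraries were below the other 4. Its RB promoter held 28.4% and 35.0% in AGO2 KD cells, 42.0% and 47.9% in LaminB KD cells, and 42.5% and 38.3% in mock.

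*Hr3* and *Hr4* had the least Pol II S2. *Hr3* (chr2R:10203995-10237348, minus strand), which activates *ftz-f1* in the prepupa, was covered by 0% and 0.552% in AGO2 KD cells, 0% and 0.977% in LaminB KD cells, and 0.552% and 0.711% in mock. Its 1 promoter with a region, of RA, RF and RH, had none in AGO2 KD cells, 0% and 32.6% in LaminB KD cells, and 18.4% and 23.7% in mock, and *CG46321* starts in the same window. Only 12.6% of the *Hr3* span lies outside other annotated genes, and that part held no covered base in any list. *Hr4* (chrX:1941940-2007956, plus strand), an early-late receptor of the same cascade, was covered by 0% and 0.968% in AGO2 KD cells, 0.264% and 0.888% in LaminB KD cells, and 0.138% and 0.150% in mock. It was the 1 gene of the 10 where both LaminB KD libraries lay above mock, by places in introns that no mock list held and that were not shared by both LaminB KD libraries. At its promoter the order was different, with 0% and 17.9% in AGO2 KD cells, 0% and 18.6% in LaminB KD cells, and 20.2% and 22.9% in mock.

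*Eip71CD* (chr3L:15511052-15513202, plus strand) encodes a methionine sulfoxide reductase and was found as an ecdysone-induced protein in cultured cells. Its body was covered by 8.00% and 55.7% in AGO2 KD cells, 57.5% and 56.5% in LaminB KD cells, and 100% and 58.0% in mock. AGO2 KD 1 and mock 1 stood apart from the other 4 libraries, which lay within 2.32 percentage points of each other. The last 500 bp was covered by 0% and 100% in AGO2 KD and by 100% in both LaminB KD and both mock libraries. Mock 1 had a single region over the whole gene where mock 2 and both LaminB KD lists had gaps. The LaminB KD minus mock difference was −22.0 percentage points, and 0 once regions were joined across gaps of up to 1 kb, so that call rests on the gap. Joining gave 8.00% and 100% in AGO2 KD cells and 100% in all 4 other libraries, so the AGO2 KD values no longer lay below those of LaminB KD or mock without overlap.

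AGO2 KD was then set against mock over all 10 gene bodies. Coverage was lower in 7 genes, *EcR*, *usp*, *Eip75B*, *br*, *ftz-f1*, *Eip78C* and *Eip71CD*, and higher in 0, and 3 overlapped. Among the 7554 protein-coding genes with a region in any of these 4 lists, 76.8% were lower and 0.053% higher, so 7 of 10 is near the background. The median difference was −1.64 percentage points over the 10 genes and −22.7 over all such genes, where the long genes start from low coverage. For promoters, 13 of the 20 with a region were lower and 0 higher, against 64.8% and 0.116% of all promoters. Without AGO2 KD 1 the lower count was 7 of 10 and the median was −1.28. Without AGO2 KD 2 they were 10 of 10 and −2.62. Each of these counts sets 1 library against 2, which is an easier call to meet. Its share over all genes was not computed, so these counts are not set beside the 76.8%. With an equal number of regions kept in each list, 4122 by fold enrichment, 5 genes were lower and the median was −0.203. These were *usp*, *Eip75B*, *Eip78C*, *Eip71CD* and *Hr4*, the last of which was not among the 7. The groups overlapped at *EcR*, *br* and *ftz-f1*, with differences of 0.0868, 0.128 and −0.575.

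LaminB KD was lower than mock in 5 gene bodies, *EcR*, *usp*, *Eip75B*, *ftz-f1* and *Eip71CD*, and higher in 1, *Hr4*. Over all genes 38.2% were lower and 3.72% higher. At *usp* the call rested on few bases, with 2948 bp and 2910 bp covered in LaminB KD and 2956 bp in both mock libraries. The median difference was −0.612 percentage points over the 10 genes and −1.91 over all genes. Without LaminB KD 1 it was −0.962 over the 10 genes. For promoters, 7 of 20 were lower and 0 higher, against 29.3% and 3.31% of all promoters. With the strongest 50% of regions in each list the mean difference was 0.585 points at *EcR* and −0.0182 at *Hr4*, and the groups overlapped at both. With an equal number of regions it was 0.323 at *ftz-f1*, where the groups overlapped, and −0.0871 at *Hr4*, where they did not. Leaving out bases in other genes left 8 genes, of which 3 were lower.

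AGO2 KD was lower than LaminB KD in 6 gene bodies, *usp*, *Eip75B*, *br*, *ftz-f1*, *Eip78C* and *Eip71CD*, and higher in 0, against 66.5% and 0.138% of all genes. The median difference was −1.57 percentage points over the 10 genes and −15.7 over all genes. It was −0.654 without AGO2 KD 1 and −2.51 without AGO2 KD 2. For promoters, 9 of 17 were lower and 1 higher, the *EcR* promoter of RB, RC and RG, against 50.8% and 0.109% of all promoters. With an equal number of regions 2 gene bodies were lower. These comparisons share libraries, so they are not independent of each other.

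Places of the mock lists were then looked for in the knockdown lists. Regions of the 6 lists that overlapped were joined into places, of which the 10 genes held 54. There were 18 at promoters, 5 in exons and 31 in introns, and 11 were found in all 6 lists, 9 of them at promoters. Of the 40 places in both mock lists, 12 (30.0%) were also in both AGO2 KD lists, against 49.4% of the 6586 such places in the genome. In both LaminB KD lists 29 of the 40 (72.5%) were found, against 82.1%. The shares differed by place. Of the 18 at promoters, 9 (50.0%) were in both AGO2 KD lists and 13 (72.2%) in both LaminB KD lists. Of the 19 in introns, 3 (15.8%) were in both AGO2 KD lists and 15 (78.95%) in both LaminB KD lists. The genome shares were not split by place. Regions on these genes are narrower than the list medians, and the part of width in these shares was not tested. Of the 54 places, 7 were in no mock list, and none of them was in both libraries of a knockdown.

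Coverage away from promoters was lowest in AGO2 KD 1. In the 8 long genes, bases inside regions and more than 500 bp from any start numbered 785 and 8000 in AGO2 KD cells, 8255 and 9042 in LaminB KD cells, and 11253 and 11799 in mock. Within 500 bp of a start there were 2046 and 3589 in AGO2 KD cells, 4468 and 4983 in LaminB KD cells, and 4798 and 5396 in mock. As a percentage of the mock mean, AGO2 KD 1 had 40.1% near starts and 6.81% away from them, while AGO2 KD 2 had 70.4% and 69.4%. Away from starts, the AGO2 KD libraries therefore differed more from each other than AGO2 KD 2 did from mock. Over the bodies of the 10 genes AGO2 KD had 17.2% and 72.5% of the mock mean, and over the genome 23.9% and 56.0%. Annotated transposons made up 7.91% to 19.4% of *EcR*, *Eip75B*, *br*, *ftz-f1*, *Eip78C* and *Hr4* and held no covered base in any list.

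Promoter regions were also ranked by fold enrichment within each list, since fold values of different lists are not on 1 scale. The lists differ in length and in which regions were called, so ranks are given side by side and are not compared between groups. The region at *Eip75B* RD, from 173 bp before the start to 305 bp after it, was among the strongest anywhere, at rank 13 and 5 in AGO2 KD cells, 32 and 118 in LaminB KD cells, and 47 and 13 in mock. Its fold enrichment was 6.91 and 7.84 in AGO2 KD cells, 6.81 and 5.32 in LaminB KD cells, and 6.09 and 6.84 in mock. The region at *Eip75B* RA was within the first 84.2% and 38.1% of the list in AGO2 KD cells, 13.6% and 8.75% in LaminB KD cells, and 10.1% and 2.69% in mock. The region at *Eip75B* RC was within the first 32.0% and 24.0% in AGO2 KD cells, 3.5% and 3.68% in LaminB KD cells, and 5.11% and 3.39% in mock. Of these 3 promoters RD ranked first in every list, and RC ranked above RA in all lists but mock 2. The *EcR* promoter of RB, RC and RG was within the first 12.2% and 40.1% in AGO2 KD cells, 18.2% and 27.3% in LaminB KD cells, and 34.7% and 38.3% in mock.

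**Figure D4:**
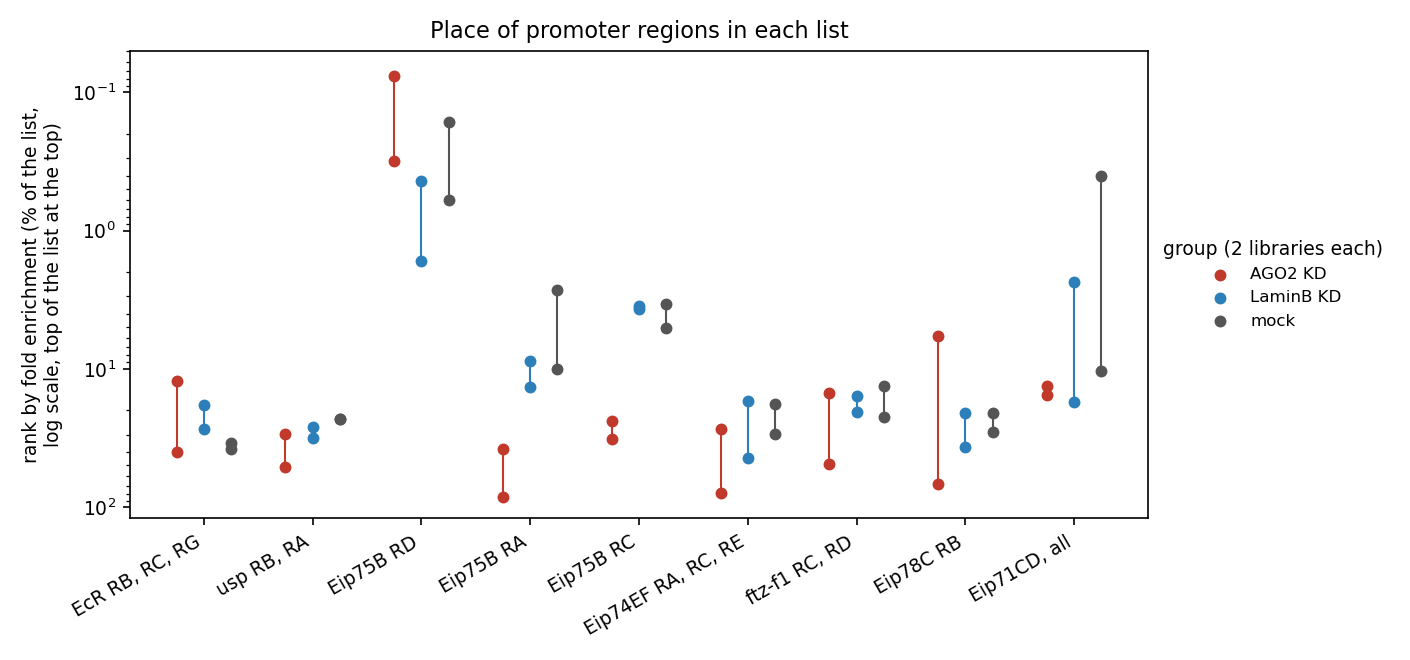
Rank of the 9 promoter regions found in all 6 lists, by fold enrichment as a percentage of the list on a log axis with the strongest regions at the top, with 1 point per library and a line joining the 2 libraries of a group. *Eip75B* RD lies within the first 1.66% of every list, above *Eip75B* RA and RC in each.

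The rest of the pathway was described from lists of genes. Counts with a region stand beside 7554 of all 13968 protein-coding genes with one in an AGO2 KD or mock list. Of the genes for ecdysone synthesis, 2 of 7 had a region, the hydroxylase *shd* and the short-chain dehydrogenase *sro*. *sro* was covered by 0% and 13.5% in AGO2 KD cells, 34.7% and 19.5% in LaminB KD cells, and 45.8% and 48.3% in mock. *shd* was covered by at most 2.25% in any library. Of 3 genes for export and breakdown, only the transporter gene *E23* had a region, 0.742% and 2.22% in AGO2 KD cells, 2.27% and 1.92% in LaminB KD cells, and 0.942% and 1.73% in mock. The 15 genes that ecdysone controls in salivary gland, cuticle and fat body had no region in any list.

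All 9 cofactors and partners of the receptor had a region. In AGO2 KD 8 were lower than mock and in LaminB KD 6, and none was higher in either, beside the 76.8% and 38.2% of all genes given above. Their median difference was −16.9 percentage points in AGO2 KD cells and −5.47 in LaminB KD. The chromatin remodeler gene *E(bx)* was covered by 13.2% and 39.1% in AGO2 KD cells, 41.8% and 40.2% in LaminB KD cells, and 59.0% and 57.1% in mock. The methyltransferase gene *trr* was covered by 0% and 2.47% in AGO2 KD cells, 16.8% and 13.4% in LaminB KD cells, and 35.7% and 38.4% in mock. The corepressor gene *Smr* was covered by 1.78% and 14.9% in AGO2 KD cells, 22.2% and 18.5% in LaminB KD cells, and 24.8% and 31.5% in mock. At these 3 genes both knockdowns were below mock without overlap.

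Of 18 other ecdysone-induced genes, 14 had a region, 10 were lower in AGO2 KD, and 7 were lower and 1 higher in LaminB KD, beside 76.8% lower in AGO2 KD, and 38.2% lower and 3.72% higher in LaminB KD, among all genes. The median difference of those 14 genes was −2.92 percentage points in AGO2 KD cells and −0.821 in LaminB KD. *Eip55E*, the gene of cystathionine gamma-lyase, had the largest AGO2 KD difference of the list. It was covered by 11.9% and 24.9% in AGO2 KD cells, 83.0% and 80.7% in LaminB KD cells, and 100% in both mock libraries. *Ldh*, lactate dehydrogenase, was covered by 13.3% and 30.6% in AGO2 KD cells, 47.9% and 47.8% in LaminB KD cells, and 98.8% and 67.8% in mock. The zinc finger gene *crol* was covered by 18.1% and 52.0% in AGO2 KD cells, 64.3% and 65.4% in LaminB KD cells, and 73.3% and 68.1% in mock. Another zinc finger gene, *Kr-h1*, was covered by 4.80% and 16.2% in AGO2 KD cells, 21.6% and 14.01% in LaminB KD cells, and 45.5% and 30.9% in mock. At *Eip55E*, *Ldh*, *crol* and *Kr-h1* both knockdowns were below mock without overlap. The small heat shock genes *Hsp23* and *Hsp26* were covered by 100% in all 6 libraries.

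Of 14 other nuclear receptor genes, 8 had a region, 7 were lower in AGO2 KD and 2 in LaminB KD, beside the same 76.8% and 38.2% of all genes. The median difference of the 8 was −4.13 percentage points in AGO2 KD cells and −1.33 in LaminB KD. *Hr78*, which is also in the ecdysone-induced list, was covered by 7.05% and 53.1% in AGO2 KD cells, 62.8% and 100% in LaminB KD cells, and 75.6% and 100% in mock. *ERR*, a regulator of carbohydrate metabolism, was covered by 11.3% and 44.2% in AGO2 KD cells, 47.8% and 77.0% in LaminB KD cells, and 70.6% and 69.6% in mock. *Hr96*, a receptor of xenobiotic and lipid metabolism, was covered by 2.65% and 3.60% in AGO2 KD cells, 6.78% and 7.58% in LaminB KD cells, and 7.92% and 10.7% in mock.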

How the data were processed

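Kc167 cells were assayed by Pol II S2 ChIP-seq in 6 IP libraries. The 6 inputs were used by the authors only, as background of the calls. Per the labels, the submitters' processing notes and the methods of the study, reads were trimmed with cutadapt (1.10 in the notes), aligned to dm6 with Bowtie2, cleared of multimapping reads and of duplicates (Picard, 2.11.0 in the notes), and broad regions were called per replicate with MACS2 2.1.1.20160309. The methods name other versions of cutadapt and Picard. Per the file values, the deposited score equals −log10 q times 10, cut to a whole number, except in 1 region. Fold enrichment, as deposited, is a ratio of IP over input background. The −log10 p and −log10 q deposited by the authors are averages over a region.

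Gene models came from Ensembl release 115 (BDGP 6.54, dm6 coordinates). Coverage was the percentage of bases inside regions, computed with Python 3.11.15 and numpy 2.4.6 scripts that were tested on simulated data. The read-based differential test of the study could not be run without reads. AGO2 KD and LaminB KD were each compared with mock and with each other by the exact permutation limit and by whether groups overlapped. The members and gene lists were chosen with earlier results of these data known. Named list genes were up to 3 with the highest mean coverage per list, plus those whose groups did not overlap with a difference of at least 25 percentage points. Listed genes without a match were not analysed here. Alternatives were the top 50% of regions by score, equal numbers of regions, −log10 q of at least 2, gaps of 1 kb joined, bases outside other genes or away from starts, windows of 250 bp and 1000 bp, a margin of 10 points, each library left out and a replicate block. Leaving out transposons was chosen after seeing the data.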

Additional observations from a re-analysis of the deposited data

How the results depend on the processing

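Values are median differences in percentage points over the 10 genes unless given as counts of genes that were lower. No share over all genes was computed for counts under alternatives, and with a library left out the call set 1 library against 2. For AGO2 KD minus mock, body coverage was −0.427 with the top 50% of regions by score and −0.203 with equal numbers of regions, against −1.64. The count of lower genes was 3 with the top 50% and 0 when groups had to lie 10 points apart, against 7. For LaminB KD minus mock, body coverage was −0.0693 with the top 50%, −0.0826 with equal numbers and −0.259 away from starts, against −0.612. TSS coverage was −2.42 with equal numbers, −3.86 with gaps of 1 kb joined and −2.72 with windows of 250 bp, against −1.29. The count was 3 of 8 without bases in other genes and 0 of 10 with the 10 point margin, against 5 of 10. For AGO2 KD minus LaminB KD, body coverage was −0.440 with the top 50% and −0.367 with equal numbers, against −1.57, and the count was 2 in both settings and 0 with the margin, against 6. Among genes whose groups did not overlap in the main setting, some differences turned sign. In AGO2 KD minus mock these were *EcR* (0.0868) and *br* (0.128) with equal numbers, where the groups then overlapped. In LaminB KD minus mock they were *EcR* (0.585) and *Hr4* (−0.0182) with the top 50%. With equal numbers they were *ftz-f1* (0.323) and *Hr4* (−0.0871). Among genes whose groups overlapped, 7, 10 and 9 differences also changed sign over all alternatives, for AGO2 KD minus mock, LaminB KD minus mock and AGO2 KD minus LaminB KD in that order. The cause was not tested. With each library left out in turn, body coverage ranged over −2.62 to −1.28, TSS coverage (−9.20 with all libraries, as the mean over the windows of a gene) over −13.1 to −5.63 and the count over 7 to 10 in AGO2 KD minus mock. In LaminB KD minus mock the ranges were −0.962 to −0.453, −2.62 to −0.427 and 5 to 7, and in AGO2 KD minus LaminB KD −2.51 to −0.654, −8.25 to −1.61 (−5.74 with all libraries) and 6 to 9. TSS coverage in LaminB KD minus mock was −0.427 without LaminB KD 1, −2.62 without LaminB KD 2 and −2.19 without mock 1. Same-numbered replicates did not deviate together (correlation across genes −0.0319, 0.0572 and −0.0406), and the replicate block gave −1.64, −0.612 and −1.57 (exact sign-flip p = 0.5 each, the smallest it allows) with 8, 5 and 6 lower genes. The other alternatives moved these medians by less than 1 SD of the replicates and these counts by at most 1.5 times. AGO2 KD against LaminB KD reached that without bases in other genes, with 4 lower genes of 8, against 6 of 10. *usp* and *br*, which have no base outside other genes, were among the 6. Depth is unknown, so a region missing from a list shows only that none was called there.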
